A study of Mus musculus with 6 samples.

Results

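The genes described here encode the glutathione, thioredoxin and antioxidant enzymes of the cell, together with their main regulators. The set lists 40 genes by name, and a gene was represented by its brightest probe set among those annotated to that gene alone. Of the 40 genes, 37 had such a probe set and 34 were bright enough to test, of 10810 genes tested in all. Prdx1, Prdx5 and Prdx6 had no probe set of their own and were not analysed here, and Gpx7, Gsta4 and Gstm5 lay under the filter on every array. The cells came from femur and tibia marrow of HdcGFP mice, all female and of C57BL/6 background, whose green fluorescent protein reports the gene Hdc, that is histidine decarboxylase, which produces histamine. Every sample was sorted for CD11b and Gr1, surface proteins of myeloid cells, and the groups differ in reporter signal: 3 samples named GFP_min (HdcGFP-/lo) and 3 samples named GFP_plus (HdcGFP+/hi), each with letters a, b and c. Expression was measured on 1 Affymetrix array per sample. The sources used here give no age or treatment and do not say whether a sample pooled animals. Nor do they say that the 3 samples of a group came from separate mice, so that the p-values rest on a spread between samples that may be only technical.

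Superoxide dismutases turn superoxide into hydrogen peroxide, which catalase, glutathione peroxidases and peroxiredoxins then remove. Glutathione peroxidases draw on glutathione, a small thiol made by glutamate-cysteine ligase and glutathione synthetase and restored by glutathione reductase, while most peroxiredoxins draw on thioredoxin, which thioredoxin reductase restores. Glutathione transferases attach glutathione to reactive compounds, glutaredoxins and methionine sulfoxide reductases repair oxidised proteins, and many of these genes are switched on by the transcription factor NRF2 (gene Nfe2l2), which KEAP1 keeps low. Neutrophils and monocytes, the main CD11b+Gr1+ cells of marrow, make superoxide themselves with the phagocyte NADPH oxidase.

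NRF2 binds a short DNA element, the antioxidant response element, whose core letters TGACNNNGC were searched on both strands in windows of the 250 bases before the starts that the RefSeq promoter table lists (GRCm38.p6). A gene with several listed starts counted as a match if any of its windows held one. The promoters of Prdx2 and Gsto1 are shown because these genes fell most, that of Sod1 as a strongly lower gene with a match, and that of Nfe2l2 as a higher gene with a match. Each runs 5′ to 3′ along the gene's own strand, and capitals mark the match.
Prdx2: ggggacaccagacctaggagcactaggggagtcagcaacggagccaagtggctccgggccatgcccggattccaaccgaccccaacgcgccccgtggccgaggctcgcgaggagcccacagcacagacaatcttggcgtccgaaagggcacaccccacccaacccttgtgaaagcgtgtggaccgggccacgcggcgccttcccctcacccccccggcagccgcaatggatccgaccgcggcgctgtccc
Gsto1: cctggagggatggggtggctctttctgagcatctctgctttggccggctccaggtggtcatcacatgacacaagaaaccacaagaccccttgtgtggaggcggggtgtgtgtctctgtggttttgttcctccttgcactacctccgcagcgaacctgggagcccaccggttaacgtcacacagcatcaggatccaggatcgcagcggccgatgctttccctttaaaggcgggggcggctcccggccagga
Sod1: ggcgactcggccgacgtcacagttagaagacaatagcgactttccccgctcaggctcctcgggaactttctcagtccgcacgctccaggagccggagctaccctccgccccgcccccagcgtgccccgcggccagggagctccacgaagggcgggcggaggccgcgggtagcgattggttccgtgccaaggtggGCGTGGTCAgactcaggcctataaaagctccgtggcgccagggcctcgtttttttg
Nfe2l2: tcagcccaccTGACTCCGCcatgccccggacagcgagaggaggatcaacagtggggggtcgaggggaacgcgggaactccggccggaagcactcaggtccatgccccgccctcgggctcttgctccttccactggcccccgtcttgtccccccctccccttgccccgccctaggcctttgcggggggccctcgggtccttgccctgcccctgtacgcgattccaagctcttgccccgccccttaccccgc
The windows lie at chr8:84969372-84969621 (plus strand), chr19:47854723-47854972 (plus), chr16:90220512-90220761 (plus) and chr2:75704664-75704913 (minus). The match begins 56 bases before the start in Sod1 and 240 bases before it in Nfe2l2, and the Prdx2 and Gsto1 windows hold none. A match was present for 7 of the 34 listed genes with an entry (20.6%) and for 3112 of 27025 genes in the whole promoter table (11.5%). It was present in 2 of 8 genes that rose (Gclm and Nfe2l2), 1 of 11 that fell (Sod1) and 2 of 11 that were tested and not called (Mgst1 and Txnrd1). The other matches lay in Gstm5 and Prdx1, which were not tested. Sites outside the 250 bases were not searched, so a gene without a match here may still hold one. Nqo1, named below as a classical NRF2 target, had none in its window.

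The levels below are the deposited log2 values, so that a difference of 1 is a doubling, and differences are GFP_plus minus GFP_min with the standard error (SE) of the limma fit. Testing was limited to probe sets brighter than their array's median on 3 or more of the 6 arrays, and a gene was called at an adjusted p under 0.05 (limma with Benjamini-Hochberg adjustment over 22956 probe sets). Levels of different genes come from different probe sets and were not set against each other. Array medians ran from 2.82 to 2.88, so that values close to these lie near background. Hdc, the basis of the sort, was 11.19 in GFP_min and 12.01 in GFP_plus, and Itgam, which encodes CD11b, was 11.58 and 11.84. The description of GFP_min sample b gives Gr1- where its sorted-cell label gives Gr1+; the counts without it stand beside the main ones below.

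Other properties of the samples moved with the groups. Of 11 monocyte markers tested, 10 were lower in GFP_plus, and their summed level was 15.64 to 15.69 in GFP_min and 12.87 to 12.92 in GFP_plus. Neutrophil markers were higher for 6 of 12, with summed levels of 17.36 to 17.40 and 17.44 to 17.52. Basophil and mast cell markers were higher for 6 of 6, of which Cpa3 and Fcer1a passed the level filter only through GFP_plus (6.43 to 6.66 and 8.59 to 8.83). Only 2 of 6 listed eosinophil markers were tested, and both were higher (7.36 to 7.54 and 8.72 to 9.03). Prg3, Ccr3 and Il5ra were under the array median on all 6 arrays, and Epx was under the level filter. Tissue macrophage markers were higher for 5 and lower for 3 of 9, of which Axl passed only through GFP_min (11.71 to 11.84 and 12.16 to 12.30). Most of that summed level was Slc40a1 (11.39 in GFP_min and 12.03 in GFP_plus), which is also on the NRF2 axis list used below. Of the others, Adgre1 was 9.41 and 7.98, Mrc1 6.20 and 4.22, and Vcam1 5.72 and 7.74. Erythroid markers were higher for 3 of 4, of which Car1 passed only through GFP_plus (8.83 to 8.92 and 9.57 to 9.74), with Hba-a1, Klf1, Alas2, Epor, Ermap and Rhag under the array median on all 6 arrays. Nearly all of that summed level was Tfrc (8.71 in GFP_min and 9.52 in GFP_plus), while Car2 was 3.25 and 3.90. B cell markers were lower for 1 of 3 (6.18 to 6.39 and 5.71 to 6.06) and T and NK cell markers for 2 of 4 (7.85 to 8.38 and 7.86 to 8.34). Of all tested genes, 21.0% were called higher and 27.6% lower. The gap between 3′ and 5′ Gapdh control probe sets, a sign of RNA quality, was 0.31 in GFP_min and 0.64 in GFP_plus (exact two-sided permutation p = 0.1, the smallest that 3 against 3 samples allow), and that of beta-actin was 0.81 and 0.87 (exact p = 0.2). The part of these cell and RNA differences in the results below was not tested, and in sorted bulk samples fewer cells of a type and less RNA per cell cannot be told apart.

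Some antioxidant genes were higher and some lower in GFP_plus. Falls of 1 or more outnumbered such rises, as they did among all tested genes. Of the 34 tested, 23 were called, beside 48.7% of all tested genes: 11 were higher in GFP_plus (32.4%), beside 21.0%, 12 were lower (35.3%), beside 27.6%, and 11 were not called. Without GFP_min sample b, 10 were higher and 12 lower. The rises were at most 0.47, and 0 of 34 genes rose by 1 or more, beside 1.52% of all genes. Prdx2, Gsto1, Mgst3, Sod1 and Prdx3 fell by 1 or more, 5 of 34 genes, beside 8.75% of all genes. The median difference was −0.033, beside 0.0023 over all genes. The samples of the groups did not overlap for 27 genes, beside 59.3% of all genes. GFP_plus lay above for 13 of these and below for 14, beside 27.2% and 32.1%. Gstt1 and Gstt2 passed the level filter only through the GFP_plus arrays, so that they could hardly be called other than higher, and of the other 32 genes 9 were higher and 12 lower.

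**Figure D1:**
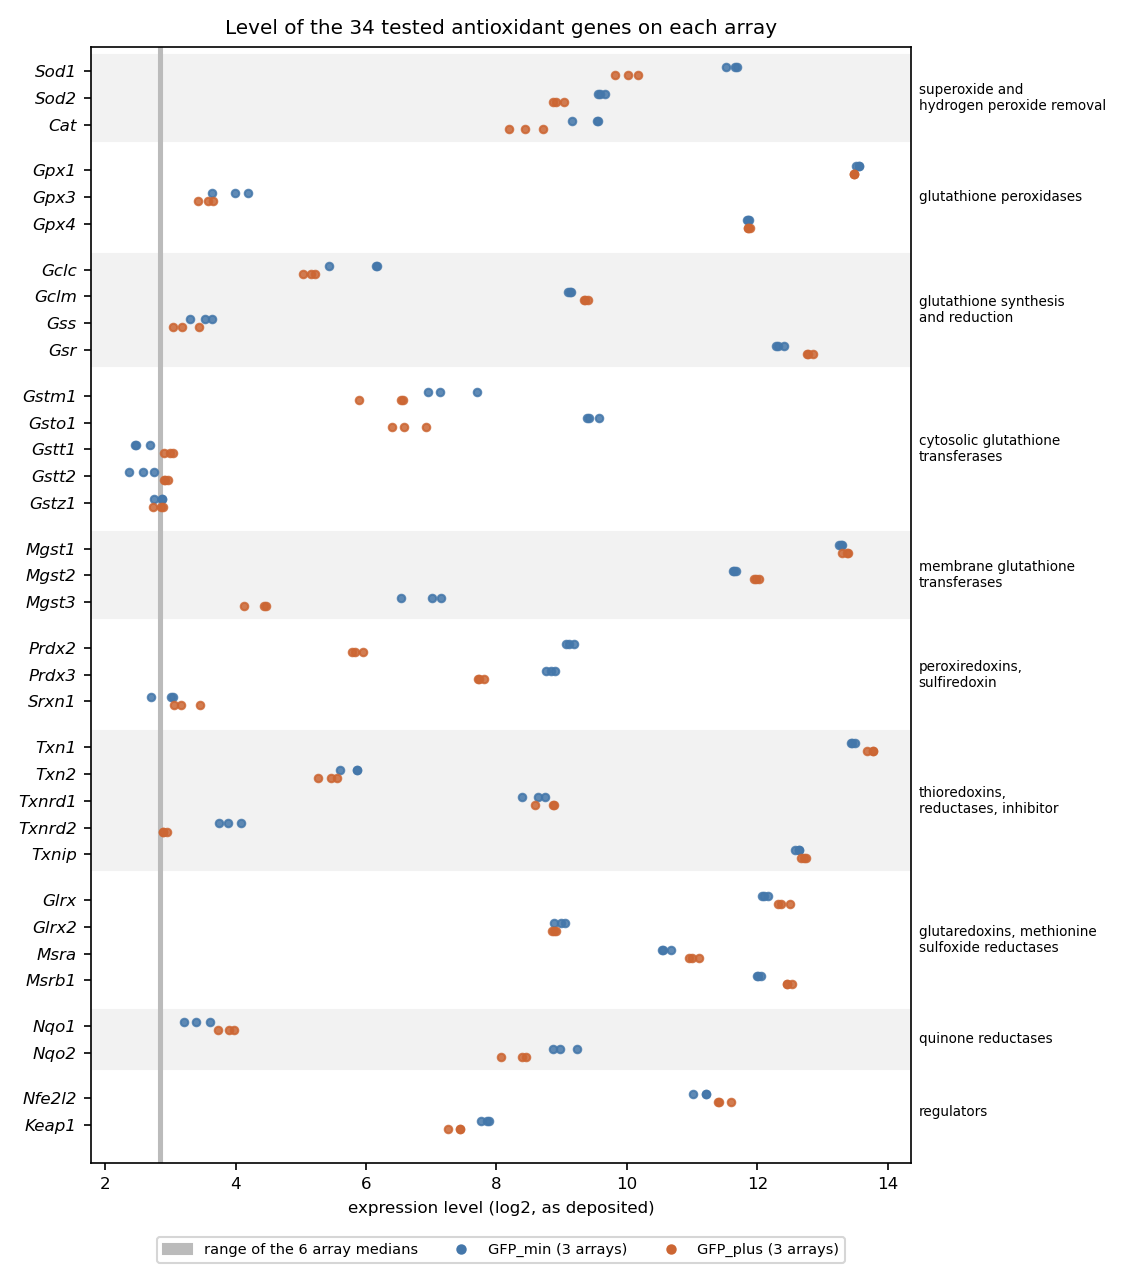
Deposited log2 level (x axis) of each of the 34 tested antioxidant genes (rows, by role) in the 3 GFP_min samples (blue) and 3 GFP_plus samples (orange), with the range of array medians as a grey band. Prdx2, Gsto1 and Mgst3 show the widest separation, while Gpx1, Gpx4 and Mgst1 nearly coincide; levels of different genes are not comparable.

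The direction of the small differences depends on how the arrays are scaled. Of the scalings applied, centring on the median of tested probe sets adds 0.20 to every difference, centring on 41 ribosomal protein genes adds 0.54, and centring on 22 bacterial poly-A control probe sets subtracts 0.45. With poly-A centring 0 of the 11 rises stayed called, and the differences of 8 of them turned negative, while Gsr, Msrb1 and Nqo1 stayed at 0.018, 0.014 and 0.021. With ribosomal centring 7 of the 12 falls stayed called: Cat, Gsto1, Mgst3, Prdx2, Prdx3, Sod1 and Txnrd2. These 7 also kept their call in each of the other 15 settings tried. The count was 17 higher and 11 lower with median centring, 19 and 7 with ribosomal centring, and 0 and 21 with poly-A centring.

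**Figure D2:**
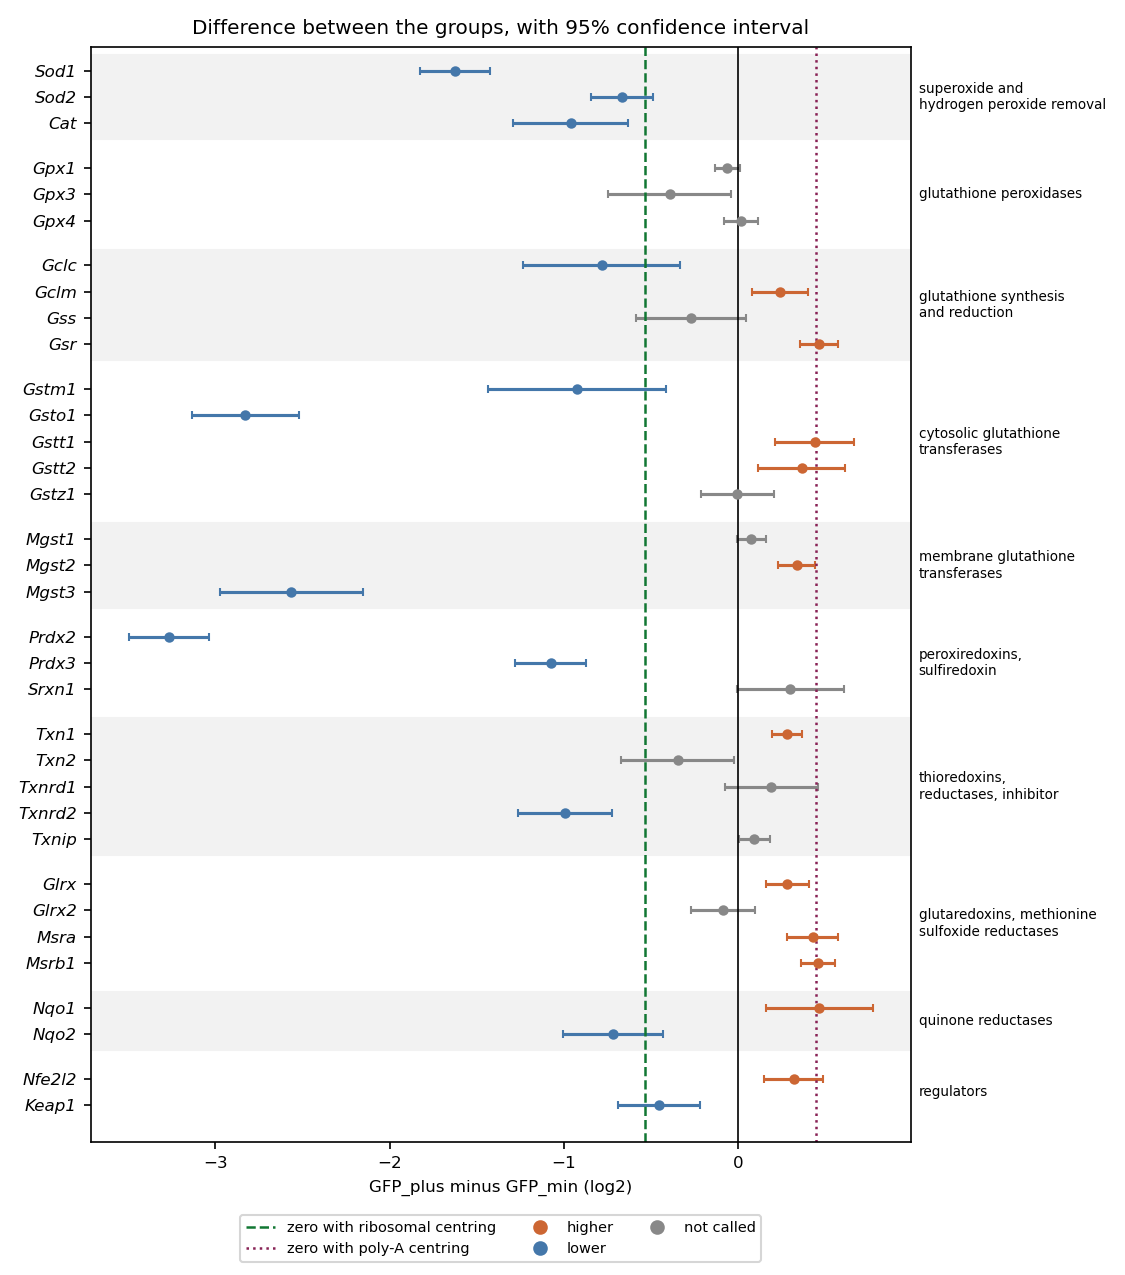
Difference between the groups (GFP_plus minus GFP_min, log2, x axis) for each tested antioxidant gene (rows, by role) with its 95% confidence interval, coloured by call; n = 3 per group. The dashed and dotted lines mark where zero would lie with ribosomal and poly-A centring: the 11 rises sit to the left of the dotted line or, at most, 0.021 to its right, and 7 of the falls, from Cat to Prdx2, lie left of the dashed one with their intervals.

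All 3 genes of superoxide and hydrogen peroxide removal were lower in GFP_plus. Sod1, the cytosolic superoxide dismutase, was 11.66, 11.69 and 11.53 in GFP_min a, b and c and 10.02, 9.81 and 10.17 in GFP_plus a, b and c. Every GFP_plus sample lay below every GFP_min sample, and the difference was −1.63 (SE 0.090, n = 3 per group, limma adjusted p = 5.47e-07), a 3.09-fold fall. All 4 tested Sod1 probe sets were lower. Sod2, the mitochondrial dismutase, fell from 9.61 ± 0.055 (SD, n = 3) to 8.94 ± 0.085, a difference of −0.67 (limma adjusted p = 0.000107) that ribosomal centring reduced to −0.13 without a call. Catalase, Cat, fell from 9.41 ± 0.23 to 8.45 ± 0.26, a difference of −0.96 (limma adjusted p = 0.000550).

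None of the 3 tested glutathione peroxidases was called. Gpx1, the main cytosolic enzyme, was 13.54 and 13.48, a difference of −0.06 (95% confidence interval −0.13 to 0.0093). Gpx4, which reduces lipid peroxides, was 11.86 and 11.87 with an interval of −0.084 to 0.11, and its second probe set was called higher at 0.22 (limma adjusted p = 0.0371). These intervals hold differences of at most 0.13 in either direction on the deposited scale, small beside the change in Sod1 or Cat. Gpx3, the secreted form, had the smallest adjusted p of the group: it was 4.19, 3.995 and 3.64 in GFP_min and 3.65, 3.58 and 3.42 in GFP_plus. The groups overlap because GFP_min c lies just below GFP_plus a, and the difference of −0.39 (limma adjusted p = 0.0658) became −0.54 with a call (limma adjusted p = 0.0190) without that sample.

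Of the genes that make or restore glutathione, Gsr and Gclm were higher, Gclc was lower and Gss was not called. Gsr, glutathione reductase, was 12.41, 12.29 and 12.31 in GFP_min and 12.76, 12.86 and 12.78 in GFP_plus. All 3 GFP_plus samples were above all GFP_min samples, with a difference of 0.46 (SE 0.048, limma adjusted p = 4.08e-05) that poly-A centring brought to 0.018. Gclc, the catalytic subunit of glutamate-cysteine ligase, fell from 5.92 ± 0.42 to 5.14 ± 0.098, a difference of −0.78 (limma adjusted p = 0.0104); GFP_min c at 5.43 lay nearest to the GFP_plus samples. Gclm, the modifier subunit of the same enzyme, rose from 9.13 ± 0.026 to 9.37 ± 0.030, a difference of 0.24 (limma adjusted p = 0.0215). That rise lost its call without GFP_min a, GFP_min c, GFP_plus a or GFP_plus c (limma adjusted p up to 0.0619), poly-A centring turned it to −0.20, and the mean of both Gclm probe sets rose by 0.44. Gss, glutathione synthetase, was 3.49 and 3.22 (−0.27, limma adjusted p = 0.149), with its second probe set called lower at −0.55 (limma adjusted p = 0.0203).

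Of 5 cytosolic glutathione transferases tested, Gsto1 and Gstm1 fell, Gstt1 and Gstt2 rose and Gstz1 was not called. Gsto1, an omega-class enzyme with glutaredoxin-like activity, was 9.42, 9.57 and 9.39 in GFP_min and 6.93, 6.40 and 6.58 in GFP_plus. The groups lay far apart, with a difference of −2.83 (SE 0.14, limma adjusted p = 2.18e-07), a 7.10-fold fall. The second Gsto1 probe set was also called lower, at −1.66 (limma adjusted p = 4.37e-05), and is of a kind that can bind related transcripts. Gstm1, a mu-class enzyme, fell from 7.26 ± 0.40 to 6.34 ± 0.38 (−0.92, limma adjusted p = 0.00851) by a probe set of a kind that can bind related mu-class transcripts, and its second tested probe set, of a specific kind, fell by 0.78 (limma adjusted p = 0.00183). The theta-class genes stayed close to background: Gstt1 was 2.54 and 2.98, at least 1.11-fold higher, and Gstt2 was 2.56 and 2.93, at least 1.07-fold higher, counting from the array medians in GFP_min. Gstt2 lost its call without GFP_min a, GFP_min b or GFP_plus a (limma adjusted p = 0.0522 to 0.0798), and poly-A centring turned both slightly negative. Gstz1, of the zeta class, was 2.83 and 2.82.

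The membrane glutathione transferases differed among themselves: Mgst1 was not called, Mgst2 rose and Mgst3 fell. Mgst3 was 7.15, 7.01 and 6.54 in GFP_min and 4.46, 4.13 and 4.43 in GFP_plus. The highest GFP_plus sample lay more than 2 units below the lowest GFP_min sample, and the difference was −2.56 (SE 0.18, limma adjusted p = 3.21e-06), a 5.91-fold fall. Mgst2, which like Mgst3 can make leukotriene C4, rose from 11.65 ± 0.027 to 11.98 ± 0.040, a difference of 0.34 (limma adjusted p = 0.000297), or −0.11 with poly-A centring. Mgst1, the abundant microsomal form, was 13.28 and 13.35 (0.076, limma adjusted p = 0.131).

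Both peroxiredoxins of the set that could be tested fell, and Prdx4, which is outside the set, is given below. Prdx2, a cytosolic enzyme best known from red blood cells, was 9.07, 9.19 and 9.11 in GFP_min and 5.95, 5.79 and 5.84 in GFP_plus. The samples of each group lay close together (SD 0.062 and 0.084), and the difference of −3.27 (SE 0.10, limma adjusted p = 1.06e-08) was a 9.62-fold fall, the largest among the antioxidant genes tested. The second Prdx2 probe set also fell, by 1.99 (limma adjusted p = 2.23e-05). Prdx3, the mitochondrial peroxiredoxin, was 8.75, 8.90 and 8.83 in GFP_min and 7.73, 7.80 and 7.73 in GFP_plus, again without overlap. Its difference was −1.08 (SE 0.090, limma adjusted p = 9.66e-06), a 2.11-fold fall. Srxn1, sulfiredoxin, which restores over-oxidised peroxiredoxins, was 2.92 and 3.22 (0.30, limma adjusted p = 0.105).

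Of 5 tested genes of the thioredoxin system Txn1 rose, Txnrd2 fell and 3 were not called. Txn1, cytosolic thioredoxin, rose from 13.47 ± 0.035 to 13.75 ± 0.059, a difference of 0.28 (limma adjusted p = 0.000309), or −0.17 with poly-A centring and 0.42 as the mean of its probe sets. Txnrd1, the cytosolic reductase, was 8.59 and 8.78 (0.19, limma adjusted p = 0.224). Txnrd2, the mitochondrial reductase, was 3.88, 4.09 and 3.74 in GFP_min and 2.89, 2.95 and 2.89 in GFP_plus. The GFP_plus samples lay just above the array medians, and the difference was −0.99 (SE 0.12, limma adjusted p = 0.000117); of its 4 tested probe sets 2 were called lower and none higher, and their mean fell by 0.42 (limma adjusted p = 0.00349). Txn2, mitochondrial thioredoxin, was 5.78 and 5.43 by its brightest probe set (−0.35, limma adjusted p = 0.0785), which is of a kind that can bind related transcripts. The other Txn2 probe sets were called lower at −0.86 and −0.94, as was the mean of its probe sets (−0.72, limma adjusted p = 0.00268). Txnip, the thioredoxin inhibitor, was 12.62 and 12.71 (0.094, limma adjusted p = 0.0865).

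The products of Sod2, Prdx3, Txn2, Txnrd2 and Glrx2 work mainly in mitochondria. Gsr, Gpx1, Gpx4 and Mgst1, whose products are found there in part, were not counted: Gsr was higher and the others were not called. Of the 5 genes grouped this way, with the values known, 3 fell (Sod2, Prdx3 and Txnrd2) and 0 rose. Their median difference was −0.67, or −0.13 with ribosomal centring. The call of lower covered 27.6% of all genes.

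Among the repair enzymes Glrx, Msra and Msrb1 were higher and Glrx2 was not called. Msrb1, a selenium-containing methionine sulfoxide reductase, was 12.02, 12.05 and 12.00 in GFP_min and 12.46, 12.46 and 12.53 in GFP_plus. Each GFP_plus sample exceeded each GFP_min sample, with a difference of 0.46 (SE 0.044, limma adjusted p = 2.34e-05), or 0.014 with poly-A centring. Msra, which repairs the other form of methionine sulfoxide, rose from 10.59 ± 0.071 to 11.02 ± 0.077 (0.43, limma adjusted p = 0.000534), and Glrx, cytosolic glutaredoxin, from 12.12 ± 0.044 to 12.40 ± 0.095 (0.28, limma adjusted p = 0.00241). Poly-A centring turned these to −0.020 and −0.17, and the second Glrx probe set was not called, the mean of both rising by 0.16. Glrx2, the mitochondrial glutaredoxin, was 8.97 and 8.89, and 1 of its other 2 probe sets was called lower at −0.55.

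The quinone reductases and the regulators each held 1 gene that rose and 1 that fell. Nqo2 was 8.87, 9.24 and 8.97 in GFP_min and 8.46, 8.08 and 8.39 in GFP_plus. No GFP_plus sample reached a GFP_min sample, and the difference was −0.72 (SE 0.13, limma adjusted p = 0.00136), but its other 2 probe sets were not called and the mean of its probe sets fell by 0.34. Nqo1, a classical NRF2 target, rose from 3.40 ± 0.20 to 3.87 ± 0.13, a difference of 0.47 (limma adjusted p = 0.0202) that was not called without GFP_min a (limma adjusted p = 0.0827) or GFP_plus b (limma adjusted p = 0.0629).

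Keap1, the brake on NRF2, was 7.88, 7.86 and 7.76 in GFP_min and 7.44, 7.44 and 7.26 in GFP_plus. The GFP_plus samples were all lower, by −0.45 (SE 0.10, limma adjusted p = 0.00575), but median centring left −0.25 without a call (limma adjusted p = 0.0531) and ribosomal centring turned it to 0.082. Nfe2l2, which encodes NRF2, was 11.21, 11.02 and 11.21 in GFP_min and 11.40, 11.60 and 11.41 in GFP_plus, without overlap. It rose by 0.32 (SE 0.075, limma adjusted p = 0.00662), which poly-A centring turned to −0.13, and its second probe set was not called (0.30, limma adjusted p = 0.140).

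**Figure D3:**
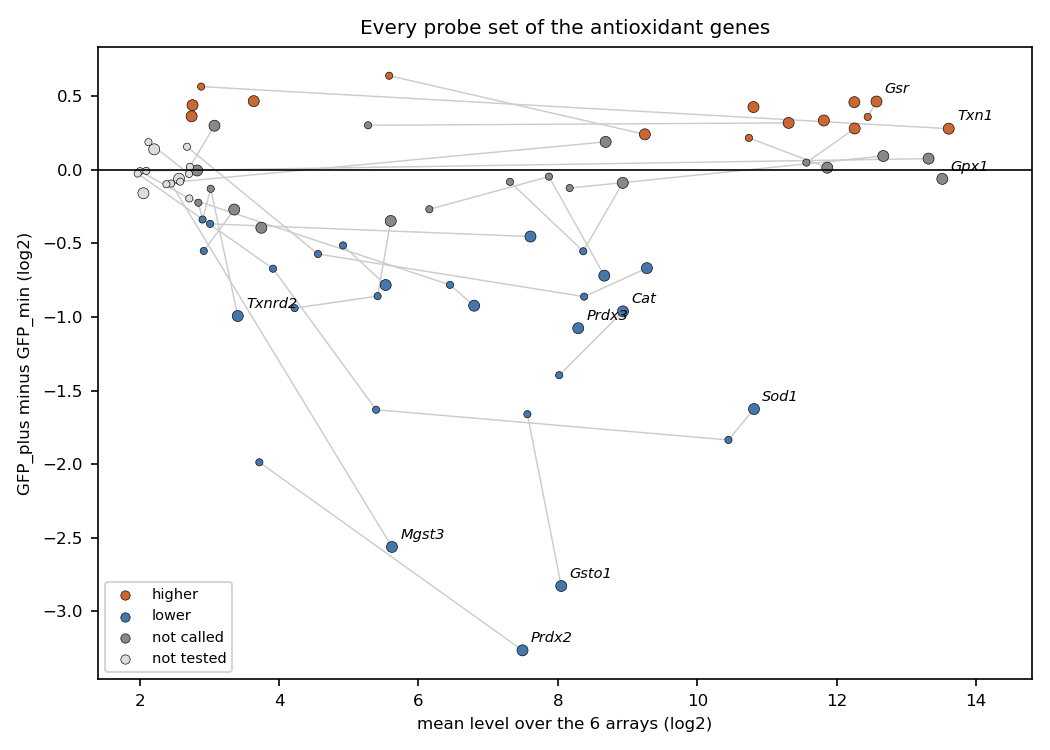
Each probe set of the antioxidant genes by its mean level over 6 arrays (x axis, log2) and its difference (y axis, GFP_plus minus GFP_min, log2), coloured by call; large points are the brightest probe set of a gene, and grey lines join probe sets of the same gene. Of 20 genes with several tested probe sets, 12 had the same call on each and 0 had calls in opposite directions.

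A difference between paired genes within 1 array does not change with centring. The 5 pairs, of 2 partners or related forms each, were chosen after their values were seen, and the gap of the first over the second member was taken on each array. The gap itself depends on the probe sets, and only its change between groups can be read. The Nfe2l2 over Keap1 gap was 3.33, 3.17 and 3.45 in GFP_min and 3.96, 4.16 and 4.15 in GFP_plus, a change of 0.77. The Gclm over Gclc gap was 2.99, 2.92 and 3.70 in GFP_min and 4.13, 4.19 and 4.37 in GFP_plus, a change of 1.02. All GFP_plus samples exceeded all GFP_min samples in both pairs. The gap changed by 0.63 for Txn1 over Txn2, by 1.19 for Nqo1 over Nqo2 and by 2.90 for Mgst2 over Mgst3, likewise without overlap. In each of the 5 pairs every GFP_plus sample already lay above every GFP_min sample for the first gene and below for the second. The lack of overlap in the gaps was therefore fixed by the choice of pairs, and a test of it could not have come out otherwise.

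**Figure D4:**
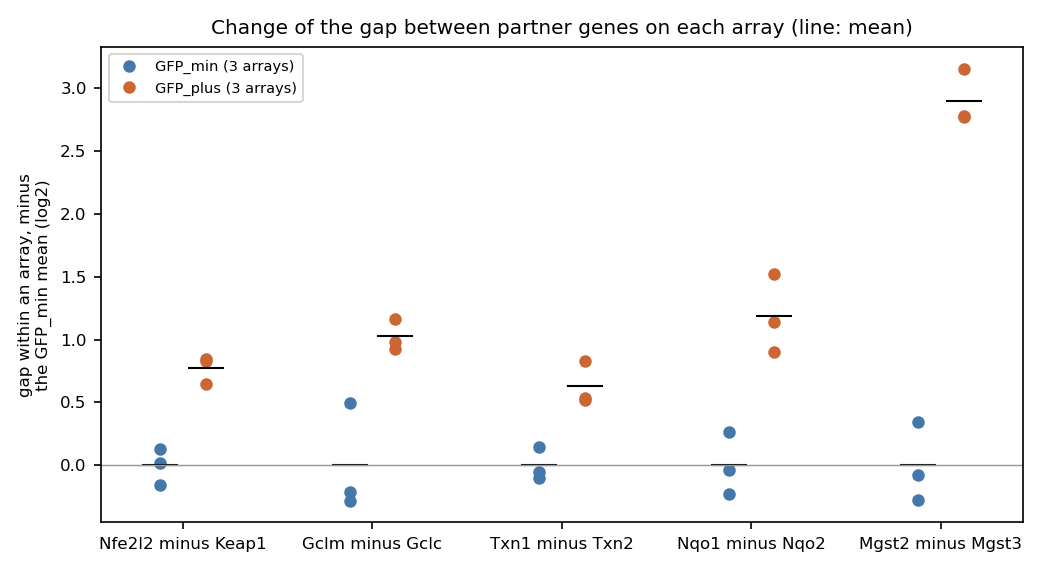
Gap between the genes of each of 5 pairs on each array, minus the mean gap of the GFP_min samples (y axis, log2), for 3 GFP_min (blue) and 3 GFP_plus (orange) samples, with group means as lines. In every pair shown the 3 GFP_plus samples lie above the 3 GFP_min samples, most widely for Mgst2 minus Mgst3 with a mean change of 2.90. The choice of pairs fixed this separation in advance.

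The remaining genes of these pathways were counted from lists of related genes, to be read beside the 21.0% of all genes that were higher and the 27.6% that were lower; their counts and medians shift with the centrings as those above do. Of 17 tested other glutathione genes 7 were higher and 5 lower, with a median difference of 0.18. Gstp1, the pi-class transferase, fell from 11.25 to 10.31 (−0.94, limma adjusted p = 7.34e-07), and Glo1, which uses glutathione to clear methylglyoxal, from 7.72 to 5.81 (−1.90, limma adjusted p = 2.95e-05). Ggt5, which cleaves leukotriene C4 and glutathione outside the cell, rose from 6.88 to 8.47 (1.58, limma adjusted p = 2.10e-05).

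Of 26 tested genes on a list of other thioredoxin-fold and repair genes 5 were higher and 10 lower, the median being −0.10. The list also holds genes of neither kind, among them Sesn2 and Oxsr1, which were higher, and Sesn1 and Ccs, which were lower. Prdx4, the peroxiredoxin of the endoplasmic reticulum, was 9.22, 9.27 and 9.39 in GFP_min and 3.59, 3.65 and 3.11 in GFP_plus, a 57.6-fold fall (−5.85, limma adjusted p = 3.94e-09) that exceeded that of Prdx2. Txndc5, a disulfide isomerase of the same compartment, fell 39.3-fold, from 8.63 to 3.33 (limma adjusted p = 5.29e-08), and Sesn1, a sestrin, fell by 1.13 (limma adjusted p = 3.45e-05). These genes and the monocyte markers were lower in the same samples, and the part of the marker difference was not tested.

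Of 20 genes of selenoprotein synthesis and other selenoproteins 2 were higher and 11 lower, the median being −0.37, which ribosomal centring would bring above 0. Selenow fell 22.3-fold, from 8.51 to 4.03 (limma adjusted p = 1.50e-08), Selenoh fell by 1.04 (limma adjusted p = 7.98e-06) and Selenop, the secreted selenium carrier, by 0.70 (limma adjusted p = 4.86e-06). Of 22 other genes of the NRF2 axis 6 were higher and 7 lower, the median being −0.0085. Blvra, biliverdin reductase A, fell from 8.64 to 6.49 (−2.15, limma adjusted p = 2.19e-06), Osgin1 rose from 7.46 to 8.48 (1.02, limma adjusted p = 1.60e-05), and Cbr3, a carbonyl reductase at background in GFP_plus, was at least 1.69-fold lower.

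Glutathione and thioredoxin reductases both run on NADPH. Of 13 tested genes in a list drawn around its supply 5 were higher and 5 lower, the median being 0.076. Not all of them make NADPH: Taldo1, Tkt and Rpia among the higher and Pgls among the lower are pentose phosphate enzymes that do not form it. G6pdx had no probe set of its own and was not analysed. The even count is therefore not a measure of NADPH supply. Idh1, the cytosolic isocitrate dehydrogenase, fell by 0.79 (limma adjusted p = 1.12e-06) and Idh2, the mitochondrial form, by 1.60 (limma adjusted p = 1.17e-05). Pgd, of the pentose phosphate pathway, rose by 0.33 (limma adjusted p = 2.37e-05), a direction that poly-A centring turned.

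**Figure D5:**
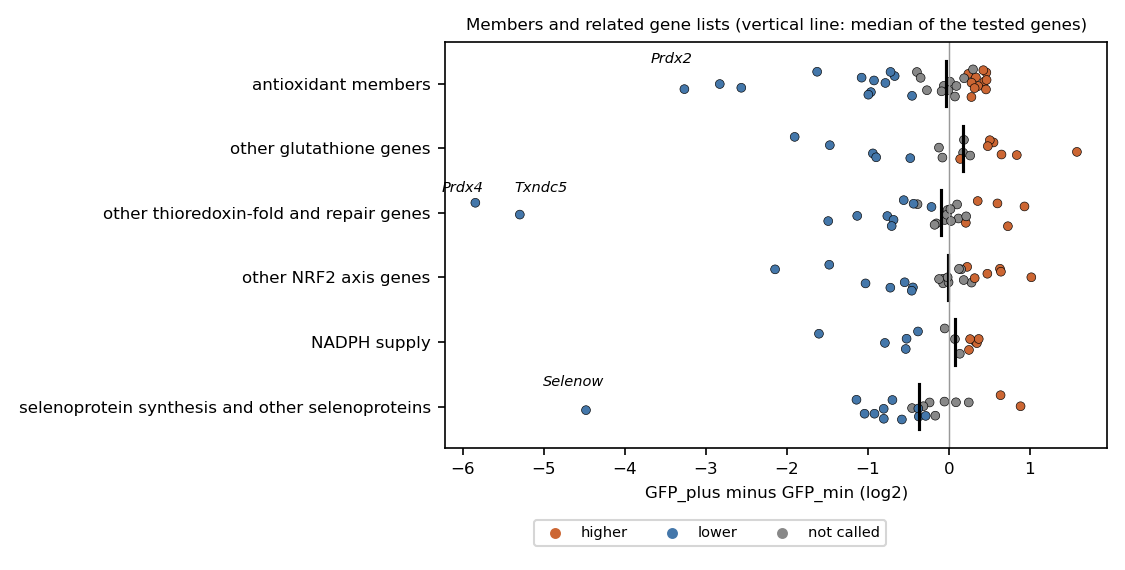
Differences (GFP_plus minus GFP_min, log2, x axis) of the tested antioxidant genes and of 5 lists of related genes (rows), coloured by call, with the median of each list as a vertical line. Prdx4, Txndc5 and Selenow lie beyond −4, further out than Prdx2, and the list medians stay between −0.37 and 0.18.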

How the data were processed

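Total RNA of 6 sorted samples was labelled and hybridised to 1 Affymetrix array each. The authors deposited log2 expression values per probe set, normalised with GCRMA per the submitters' processing notes (version not given in the sources used here). GCRMA normally equalises the arrays' probe distributions before summarising, so that a shift of all genes together cannot be seen. Of 45101 probe sets, 64 controls were left out, 34945 had 1 gene symbol in the platform annotation, 932 several and 9160 none. Of those with 1 symbol, 34741 matched RefSeq (GRCm38.p6). No further normalisation was applied in the main analysis.

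The 3 GFP_plus samples were compared with the 3 GFP_min samples with limma 3.58.1 in R 4.3.3 (lmFit, eBayes with intensity trend), tested on simulated data, with Benjamini-Hochberg adjustment over the 22956 probe sets above their own array's median on at least 3 arrays. Per-sample values are given for genes called with a difference of at least 1, for the smallest adjusted p of each role group and, beyond that rule, for Nfe2l2 and Prdx4; of each related list the 3 smallest adjusted p are named. The members and lists were chosen with earlier results of these data known. The number of arrays limits the precision. Filters, variance model, array weights, scalings, probe set choice, a replicate block and single samples were varied.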

Additional observations from a re-analysis of the deposited data

How the results depend on the processing

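Of the 12 falls, 12 kept their call outside the 3 centrings and 7 under all 16 alternatives; of the 11 rises 0 kept it under all, and outside the centrings all but Gclm, Gstt2 and Nqo1 kept it wherever they were tested (Gstt1 and Gstt2 were not tested with the stricter filter). Main counts were 2275 genes higher and 2988 lower. They were 4472 and 2091 with median centring, 7412 and 1206 with ribosomal centring, and 347 and 6460 with poly-A centring. The share of higher among called genes was 43.2% in the main analysis and 68.1%, 86.0% and 5.10% with these. Among the antioxidant genes it was 47.8%, and 60.7%, 73.1% and 0%. Counts of antioxidant genes were 17 higher and 11 lower, 19 and 7, and 0 and 21. Their median was 0.17, 0.50 and −0.48, and −0.18 over the 30 genes left by the stricter filter. Leaving out 1 sample gave 8 to 10 higher and 12 to 13 lower, a median of −0.059 to −0.019, and 1747 to 2084 genes higher and 2676 to 2772 lower.

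Directions reversed as follows, the cause being each centring's constant shift. Median centring gave Gpx1 0.14, Gstz1 0.20 and Glrx2 0.11. Ribosomal centring gave Gpx1 0.47, Gpx3 0.14, Gss 0.27, Gstz1 0.53, Txn2 0.19, Glrx2 0.45 and Keap1 0.082. Poly-A centring gave Gpx4 −0.43, Gclm −0.20, Gstt1 −0.0070, Gstt2 −0.083, Mgst1 −0.37, Mgst2 −0.11, Srxn1 −0.15, Txn1 −0.17, Txnrd1 −0.26, Txnip −0.35, Glrx −0.17, Msra −0.020 and Nfe2l2 −0.13. Of genes not called, Gpx4 was −0.023 with quantile normalisation, Txnip −0.015 with the mean of its probe sets, and Gstz1 −0.045 to 0.040 on leaving out 1 sample; the cause was not tested.

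Deviations of same-letter samples correlated at −0.18, −0.30 and −0.22, and those of different-letter samples at −0.015 to 0.24. Samples sharing a letter thus showed no positive correlation. Deviations from a group mean cancel out within the group, so these correlations depend on each other. They cannot decide whether the letters a, b and c mark paired samples. With the replicate block 10 antioxidant genes were higher and 12 lower, the median was −0.033, 1737 genes were higher and 2603 lower, and Gclm was not called (limma adjusted p = 0.0940).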

Other observations

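Among the antioxidant genes tested, Gpx1, Gpx3, Gpx4, Txnrd1, Txnrd2 and Msrb1 encode selenoproteins, which carry selenocysteine. Of these 6, Msrb1 rose, Txnrd2 fell and 4 were not called, beside 21.0% of all tested genes higher and 27.6% lower, with a median difference of −0.024. This grouping was made after the values were seen and was not tested.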
